A study of Mus musculus with 22 samples.

Results

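A set of 10 genes of glucose uptake and glycolysis was followed through mouse left ventricles under pressure overload. They are the glucose transporters Slc2a1 (GLUT1) and Slc2a4 (GLUT4), the hexokinases Hk1 and Hk2, the phosphofructokinases Pfkm and Pfkp, the muscle enolase Eno3, the pyruvate kinase Pkm, and the lactate dehydrogenases Ldha and Ldhb. The 10 genes were chosen by name, not by a measured value, and all 10 were found among the 30735 genes of the deposited tables. The hearts came from FVB mice of 3 to 5 months of 2 genotypes, a transgenic line for valosin-containing protein (VCP TG) and the wild type (WT). VCP is an ATPase that pulls ubiquitinated proteins out of complexes for degradation. Surgery was either TAC (transverse aortic constriction), in which a narrowed aorta makes the left ventricle pump against raised pressure, or a sham operation. At 2 weeks there were 3 VCP TG TAC, 4 WT TAC, 4 VCP TG sham and 4 WT sham libraries. At 5 weeks there were 3 VCP TG TAC and 4 WT TAC libraries, deposited in a table of their own. The labels name neither the promoter of the transgene nor the animal behind a library. All 22 libraries were made from polyadenylated RNA of ventricular tissue.

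The adult heart takes most of its energy from fatty acids and a smaller share from glucose, and hearts under pressure overload are known for a shift of fuel use toward glucose. Glucose enters the cardiomyocyte through GLUT4, which insulin and contraction move to the cell surface, and through GLUT1, which sits there without insulin. Hexokinase traps the sugar as glucose 6-phosphate, phosphofructokinase makes the committing step of glycolysis, and enolase and pyruvate kinase carry the last steps to pyruvate. Lactate dehydrogenase turns pyruvate and lactate into each other, with the Ldhb subunit prevailing in heart and the Ldha subunit in fast muscle.

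Hypoxia-inducible factor, a regulator of glycolytic genes, binds the core letters ACGTG or GCGTG. The 250 bases before the RefSeq start (GRCm38.p6) are shown for Hk2, which had the lowest unadjusted p of the 10 genes between loaded and sham WT hearts with the 4 groups of 2 weeks fitted together, and for the lactate dehydrogenase pair, of which Ldha holds ACGTG and Ldhb does not. Capitals mark ACGTG on either strand; GCGTG is not marked.
Hk2, chr6:82774455-82774704, minus strand: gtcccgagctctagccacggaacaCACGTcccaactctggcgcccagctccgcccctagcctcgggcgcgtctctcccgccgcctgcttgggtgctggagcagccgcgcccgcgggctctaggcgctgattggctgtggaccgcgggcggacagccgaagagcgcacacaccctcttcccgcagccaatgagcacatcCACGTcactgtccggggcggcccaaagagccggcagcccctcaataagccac
Ldha, chr7:46845554-46845803, plus strand: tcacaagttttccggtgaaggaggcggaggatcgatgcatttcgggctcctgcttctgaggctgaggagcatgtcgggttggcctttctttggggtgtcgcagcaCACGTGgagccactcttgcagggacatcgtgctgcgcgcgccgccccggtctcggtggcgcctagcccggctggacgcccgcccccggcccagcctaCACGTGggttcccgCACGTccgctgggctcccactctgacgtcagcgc
Ldhb, chr6:142507958-142508207, minus strand: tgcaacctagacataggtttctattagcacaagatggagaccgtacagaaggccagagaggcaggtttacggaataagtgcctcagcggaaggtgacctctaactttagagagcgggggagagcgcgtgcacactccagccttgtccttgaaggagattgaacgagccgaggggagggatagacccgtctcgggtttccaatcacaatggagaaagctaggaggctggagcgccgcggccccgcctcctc
The Hk2 window holds 2 matches to ACGTG. The Ldha window holds 5 matches in 3 stretches, because CACGTG, the E-box bound by Myc and other factors, reads as ACGTG on both strands and occurs 2 times. The Ldhb window holds 0 matches to ACGTG and 1 to GCGTG, which the other 2 windows lack. None of the 3 windows overlaps an exon of GENCODE. A second RefSeq start of Ldha has 0 matches to ACGTG and 1 to GCGTG in its window. Of the 10 genes, 9 had promoter entries, with 15 windows, of which 6 held ACGTG. Across all 32851 RefSeq windows of the same length, 16.6% held ACGTG and 28.2% GCGTG. A match describes these letters and is not evidence of binding.

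The 10 genes spanned a wide range of transcript levels, in TPM (transcripts per 1000000), which are corrected for transcript length. Eno3 averaged 422 TPM over the 22 libraries and Ldhb 320. Pkm (158) and Ldha (147) followed, then Pfkm with 76.8. Eno3 and Ldhb held the first 2 ranks in every library and Pkm and Ldha the next 2, with the order within each pair changing between libraries. Hk1 (41.7 TPM), Slc2a4 (37.3) and Hk2 (37.1) were nearly level. Pfkp (19.8 TPM), the phosphofructokinase of platelets and many other cells, lay below the muscle form Pfkm in all 22 libraries. Slc2a1 was the lowest in every library, at 2.63 to 6.95 TPM. Hk1 lies on chromosome 10 (62268855 to 62379908, minus strand), Hk2 on chromosome 6 (82725025 to 82774454, minus), Pfkm on chromosome 15 (98092589 to 98132451, plus), Pkm on chromosome 9 (59656368 to 59679375, plus) and Slc2a4 on chromosome 11 (69942539 to 69948188, minus), all as protein-coding genes of GRCm38. Pfkm overlaps the opposite-strand gene Senp1, at up to 34.0 TPM, and Pfkp overlaps Pitrm1, at up to 19.3 TPM. The library kit keeps strand; no source used here says whether the quantification used it. The processed copies Ldha-ps and Ldha-ps2 reached at most 0.926 and 1.37 TPM.

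The libraries differed in ways that touch every value below. Between 27.9% and 72.9% of the TPM of a library came from the 13 genes of the mitochondrial genome. Gene identifiers without a GENCODE name held 1.92% to 26.0%. Since TPM sum to a fixed total, each comparison was also fitted after rescaling to nuclear protein-coding genes. Rescaling raised the values, so more genes reached the level needed for a test (20313 against 15540 at 2 weeks). Shares and medians over all genes thus cover different genes on the 2 scales. Fits that left out libraries were made on the deposited scale only. All 7 markers of ventricular cardiomyocytes were at 1 TPM or more in every library, whereas 0 of 7 fast skeletal muscle markers were. Vcp went against the label in some libraries. In the 3 VCP TG TAC libraries of 2 weeks it stood at 135, 125 and 151 TPM, against 119, 48.2, 47.7 and 50.3 in WT TAC. In sham hearts it stood at 89.1, 186, 156 and 73.5 TPM in VCP TG and at 62.9, 82.6, 57.2 and 45.7 in WT. At 5 weeks it stood at 118, 108 and 39.1 TPM in VCP TG and at 62.2, 123, 107 and 47.7 in WT, so the library labelled VCP TG TAC 5 weeks replicate 3 and those labelled WT TAC 5 weeks replicates 2 and 3 lay with the other genotype, as did the library labelled WT TAC 2 weeks replicate 1. After rescaling, VCP TG sham replicate 1 (215) lay above but close to the highest WT sham value (204). Directions between VCP TG and WT follow the labels. Atrial markers were high in VCP TG sham replicates 3 and 4, the library labelled WT TAC 2 weeks replicate 1 and VCP TG TAC 2 weeks replicate 2.

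**Figure D1:**
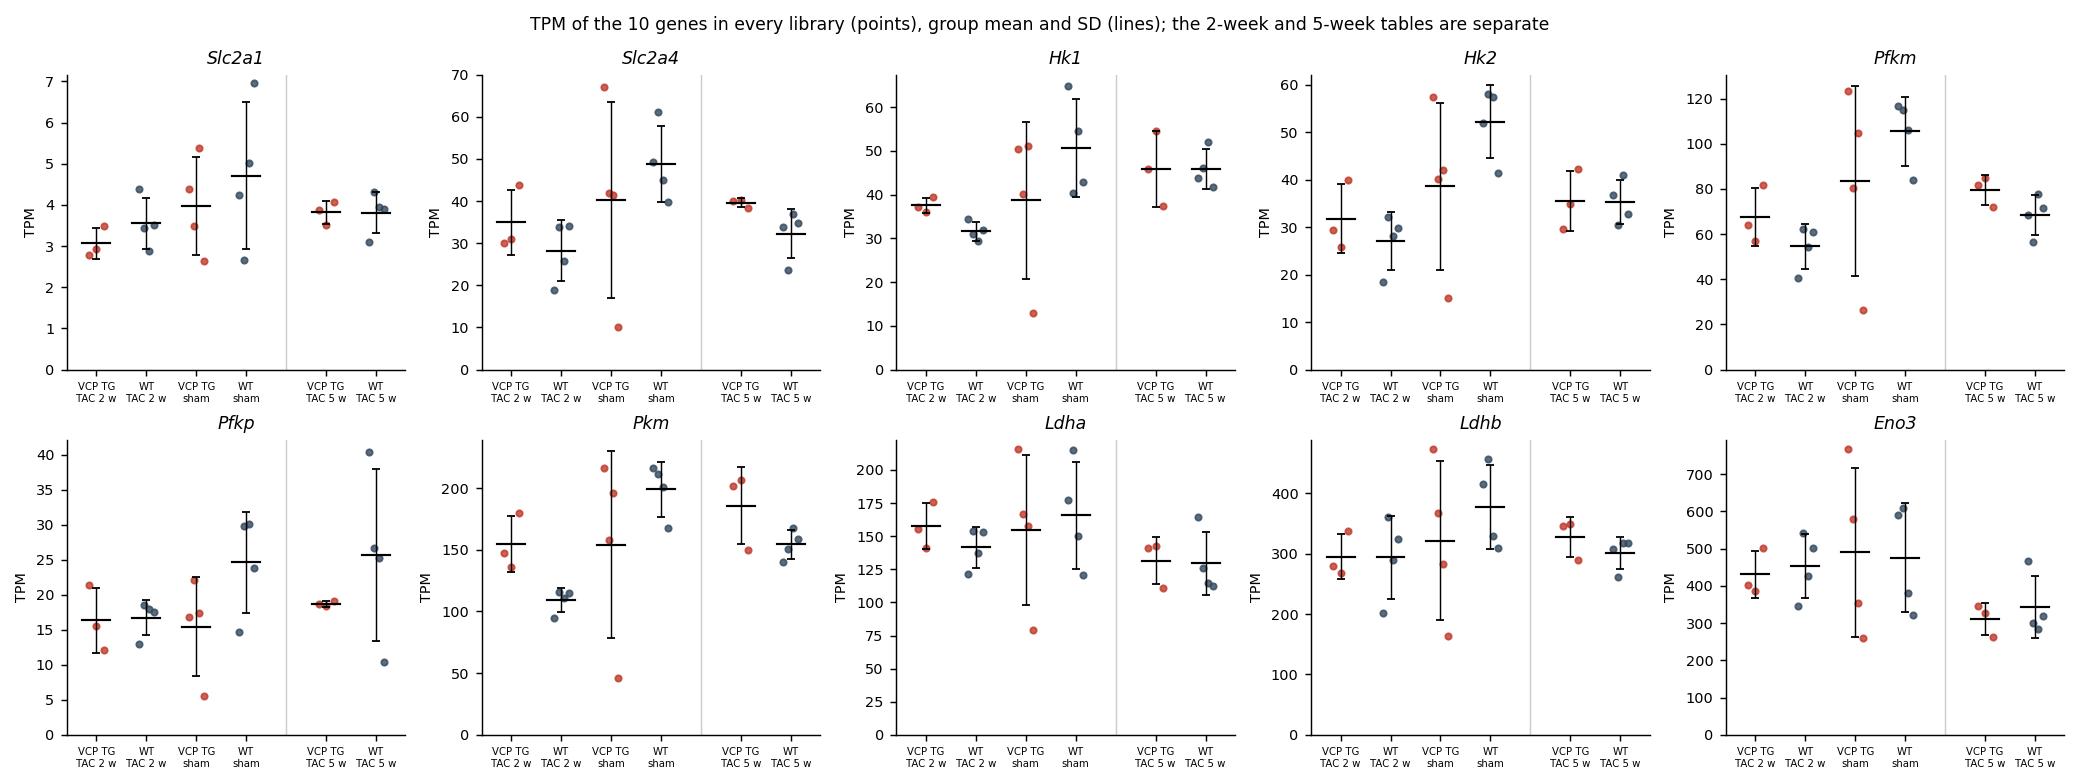
Deposited TPM (y axis, from 0) of each of the 10 genes by group (x axis); points are libraries, lines the group mean and SD, with the 5-week table to the right of the grey line. In Pkm the 4 WT TAC libraries of 2 weeks (95.0 to 116 TPM) lie below all 4 WT sham libraries (167 to 216), and 1 VCP TG sham library is the lowest of all 22 for every gene.

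Loaded WT hearts were compared with sham WT hearts at 2 weeks to ask what pressure overload does without the transgene. All 10 genes had lower means after TAC, by a median of 0.57 on the log2 scale, where all genes tested had a median change of -0.13. Hexokinase 2, muscle phosphofructokinase, pyruvate kinase and GLUT4 showed the widest gaps. Enolase 3 and Ldha differed little. Which of these differences passed a test varied with the groups and libraries in the fit.

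Pkm catalyses the last step of glycolysis, and its gene-level value pools the M1 and M2 splice forms. It stood at 95.0, 116, 111 and 115 TPM in WT TAC, against 216, 211, 200 and 167 TPM in WT sham. The highest TAC value was thus under the lowest sham value.

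Pfkm, the muscle form of the committing enzyme, stood at 40.6, 62.1, 54.3 and 61.1 TPM in WT TAC, against 117, 115, 106 and 83.8 TPM in WT sham. Hk2, the insulin-regulated hexokinase of muscle, stood at 18.4, 32.1, 28.1 and 29.9 TPM in WT TAC, against 51.9, 58.2, 57.4 and 41.4 TPM in WT sham. In both genes the groups did not overlap, and replicate 1 was the lowest of the TAC libraries.

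Slc2a4 stood at 18.9, 33.8, 25.9 and 34.2 TPM in WT TAC, against 49.2, 61.1, 45.1 and 39.7 TPM in WT sham. Hk1, the more widely expressed hexokinase, stood at 34.4, 30.9, 29.3 and 31.9 TPM in WT TAC, against 64.8, 40.3, 54.6 and 42.8 TPM in WT sham. These groups too did not overlap, although the gaps between the nearest libraries were small. In all, 5 of the 10 genes were lower in every TAC library than in every sham library. The share over all genes tested was 13.7%. After rescaling Hk1 overlapped and 4 genes stayed apart, against 12.5% of genes on that scale.

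The other 5 genes overlapped between WT TAC and WT sham. Eno3 averaged 454 ± 86.2 TPM in WT TAC and 476 ± 145 TPM in WT sham (SD, n = 4 each), and Ldha averaged 142 ± 15.4 TPM in WT TAC and 166 ± 40.3 TPM in WT sham. Ldhb averaged 294 ± 68.3 TPM in WT TAC and 378 ± 70.03 TPM in WT sham. Pfkp averaged 16.7 ± 2.53 TPM in WT TAC and 24.6 ± 7.19 TPM in WT sham, and Slc2a1 averaged 3.56 ± 0.62 TPM in WT TAC and 4.71 ± 1.78 TPM in WT sham.

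With all 4 groups of the 2-week table in 1 limma fit on log2(TPM + 1), 0 of the 10 genes passed an adjusted p of 0.05 (0.0% of all genes tested), and 3 of them, Hk2, Pfkm and Pkm, had an unadjusted p under 0.05, as did 1773 genes in all. The differences were -0.94 ± 0.32 for Hk2 (limma adjusted p = 0.346), -0.95 ± 0.35 for Pfkm (0.365), -0.86 ± 0.35 for Pkm (0.385), -0.79 ± 0.39 for Slc2a4 (0.449) and -0.64 ± 0.32 for Hk1 (0.455), with standard errors. The groups did not share 1 spread. The median SD over genes, on the log2 scale, was 0.19 in VCP TG TAC, 0.21 in WT TAC, 0.58 in VCP TG sham and 0.31 in WT sham.

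With WT TAC and WT sham fitted alone, the same differences had smaller standard errors, and 4 of the 10 genes passed as lower in WT TAC. They were Pfkm (-0.95 ± 0.19, limma adjusted p = 0.0217), Hk2 (-0.94 ± 0.20, 0.0270), Pkm (-0.86 ± 0.16, 0.0194) and Slc2a4 (-0.79 ± 0.21, 0.0488). Hk1 missed the threshold at -0.64 ± 0.18 (adjusted p = 0.0521). In that fit 6.31% of all genes passed as lower and 0.722% as higher. The 4 calls also held after rescaling, with -0.94 for Pfkm, -0.93 for Hk2, -0.84 for Pkm and -0.79 for Slc2a4. The count of 4 changed when single libraries were left out. It was 0 without replicate 3 of either group, 1 without WT TAC replicate 2 or 4, and 3 without replicate 1 of either group. Leaving out WT sham replicate 2 gave 4 genes, and leaving out WT sham replicate 4 gave 5.

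**Figure D2:**
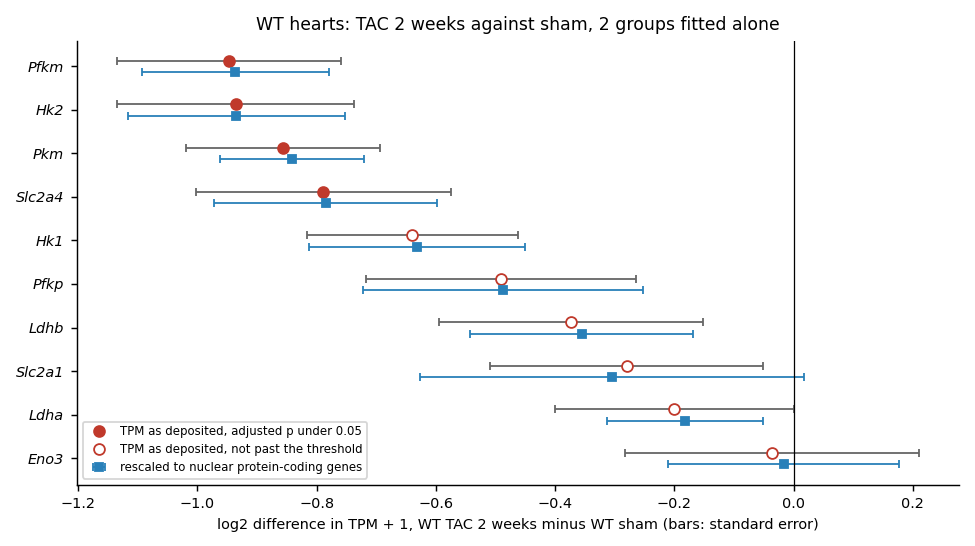
Log2 difference in TPM + 1 between WT TAC 2 weeks and WT sham (x axis) with its standard error, for each of the 10 genes (rows), the 2 groups fitted alone; circles are TPM as deposited, filled where the adjusted p was under 0.05, and squares are values rescaled to nuclear protein-coding genes. Pfkm, Hk2, Pkm and Slc2a4 lie between -0.95 and -0.79 on both scales, and Eno3 lies near 0.

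Markers of heart muscle and of other cells moved between the same WT groups. The summed rescaled level of the 7 cardiomyocyte markers was 59447 to 75525 in WT TAC and 76237 to 85385 in WT sham, so the groups did not overlap. Of these 7, Myh6, the main motor protein of the mouse ventricle, passed as lower with the 2 groups fitted alone (-0.72 ± 0.17, limma adjusted p = 0.0325). Without overlap on the rescaled scale, 3 of the 7 (Myh6, Tnnt2 and Ryr2) were lower in WT TAC and 1 was higher, Actc1, the cardiac actin, at 13363 to 16242 in WT TAC and 9516 to 12973 in WT sham. The 5 macrophage markers summed to 219 to 578 in WT TAC and 145 to 280 in WT sham. The 5 endothelial markers summed to 418 to 635 in WT TAC and 555 to 670 in WT sham. The 6 atrial markers summed to 155 to 27890 in WT TAC and 133 to 472 in WT sham. In each of these lists the highest WT TAC sum was from the library labelled WT TAC replicate 1. Without that library the highest were 369 (macrophage), 496 (endothelial) and 467 (atrial), so the endothelial sums then lay below all of WT sham. Of the 5 endothelial markers, 2 were lower in WT TAC without overlap: Cdh5, a junction cadherin, at 131 to 160 in WT TAC and 166 to 233 in WT sham, and Tie1, a receptor kinase, at 26.2 to 29.5 in WT TAC and 39.9 to 59.0 in WT sham. Tie1 passed with the 2 groups fitted alone (-0.73 ± 0.19, limma adjusted p = 0.0415). After rescaling, 4 of the 5 had a lower mean on the log2 scale in WT TAC. Emcn overlapped, at 75.1 to 224 in WT TAC and 72.7 to 101 in WT sham. The 4 markers of mesothelium, the sheet that covers the heart, summed to 17.3 to 98.9 in WT TAC and 12.3 to 47.6 in WT sham, and 3 of them were higher in WT TAC without overlap. These were Msln (1.09 to 15.6 in WT TAC, 0 to 0.63 in WT sham), Upk1b (1.17 to 22.3 in WT TAC, 0 to 0.222 in WT sham) and Upk3b (3.13 to 45.5 in WT TAC, 0 to 2.11 in WT sham). The other marker of that list, Wt1, overlapped and went the other way. Its median was 12.5 in WT TAC (10.9 to 15.5) and 18.1 in WT sham (11.6 to 47.1). Mitochondrial genes took 55.5% to 60.9% of TPM in WT TAC and 46.0% to 56.8% in WT sham. Gene identifiers without a GENCODE name took 4.21% to 8.80% in WT TAC and 11.7% to 15.4% in WT sham, without overlap. The part of these markers and shares in the result was not tested. In bulk tissue, fewer cells of a type and less RNA per cell cannot be told apart.

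Other genes of the pathway were read from lists of their own, in the same WT comparison. With the 2 groups fitted alone, where 6.31% of all genes passed as lower and 0.722% as higher, 1 of 10 tested other glycolytic enzymes passed, Pfkl, the liver form of phosphofructokinase (-0.91 ± 0.16, limma adjusted p = 0.0176). Of 8 tested genes of glucose transport, 1 passed, the intracellular transporter Slc2a8 (-0.92 ± 0.18, 0.0213). Of 10 glycogen genes, 2 passed as lower, the muscle glycogen synthase Gys1 (-0.74 ± 0.19, 0.0424) and the brain-type phosphorylase Pygb (-0.85 ± 0.19, 0.0286), and 1 as higher, the branching enzyme Gbe1 (0.76 ± 0.20, 0.0447). No gene passed among 3 tested PFKFB enzymes, which set the level of the activator fructose 2,6-bisphosphate, 14 tested genes of pyruvate and lactate handling, or 11 regulators. In the list of regulators, the insulin-signalling kinase Akt2 was lower without overlap, as were 13.7% of all genes tested, at -0.57 ± 0.17 (limma adjusted p = 0.0637). With 4 groups fitted together, 0 genes of these lists passed in any of the comparisons.

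The transgene without load was examined in VCP TG sham against WT sham hearts. All 10 genes had lower means on the log2 scale in VCP TG sham hearts, by a median of 0.52, against -0.01 for all genes tested. No gene of the 10 passed (0.0% of all genes), and 616 genes in all had an unadjusted p under 0.05. Pfkp had the largest difference and, on the deposited scale, the only unadjusted p under 0.05 among the 10, at -0.73 ± 0.34 (limma adjusted p = 1.0).

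In TPM as deposited, much of the difference in sham hearts came with 1 library. VCP TG sham replicate 4 had the lowest level of all 22 libraries for each of the 10 genes in TPM as deposited, and for 5 of them (Slc2a4, Hk1, Pfkm, Pfkp and Pkm) after rescaling, and 72.9% of its TPM were mitochondrial. Pkm stood at 216, 158, 196 and 46.0 TPM in VCP TG sham, against 216, 211, 200 and 167 TPM in WT sham. Slc2a4 stood at 67.2, 42.0, 41.5 and 10.2 TPM in VCP TG sham, against 49.2, 61.1, 45.1 and 39.7 TPM in WT sham. In each gene replicate 4 lay far below the rest, and the other 3 libraries overlapped WT sham.

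On the deposited scale, without VCP TG sham replicate 4, the median difference of the 10 genes was -0.04. Of the genes, 3 were then higher and 7 lower, and Pfkp differed by -0.33. Without the libraries rich in atrial transcripts, which include replicates 3 and 4, the median was -0.08, with 4 genes higher and 6 lower. Without VCP TG sham replicate 1, the median was -0.74 and all 10 genes stayed lower. After rescaling, the 10 genes remained lower (median -0.59), and Hk2 and Pkm did not overlap, where 1.9% of all genes were lower without overlap. On that scale 5 of the 10 had an unadjusted limma p under 0.05, as did 1830 of 20313 genes in all, and 0 of the 10 passed. Rescaled Hk2 stood at 138, 111, 95.8 and 63.6 in VCP TG sham, against 144 to 171 in WT sham. Rescaled Pkm stood at 521, 436, 447 and 195 in VCP TG sham, against 522 to 628 in WT sham. In both genes replicate 1 lay only narrowly below WT sham. No fit without replicate 4 was made on that scale. Atrial markers summed to 102 to 24188 on the rescaled scale in VCP TG sham and 133 to 472 in WT sham. Red cell markers summed to 293 to 4974 in VCP TG sham and 82.2 to 257 in WT sham, without overlap. Endothelial markers summed to 354 to 492 in VCP TG sham and 555 to 670 in WT sham, without overlap. Of these 5 markers, 4 had a lower mean on the log2 scale in VCP TG sham, but only 1, Cdh5, was lower without overlap. Emcn overlapped, at 79.3 to 119 in VCP TG sham and 72.7 to 101 in WT sham. The part of these markers in the result was not tested.

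Under load at 2 weeks, VCP TG hearts were compared with WT hearts. Of the 10 genes, 7 had higher means in VCP TG TAC, with a median difference of 0.19, close to the 0.16 of all genes tested. No gene of the 10 passed, against 0.0901% of all genes, and 0 of the 10 had an unadjusted p under 0.05. Pkm stood at 148, 136 and 180 TPM in VCP TG TAC, against 95.0, 116, 111 and 115 TPM in WT TAC. Hk1 stood at 37.1, 36.1 and 39.5 TPM in VCP TG TAC, against 34.4, 30.9, 29.3 and 31.9 TPM in WT TAC. These were the 2 genes of the 10 that were higher in every VCP TG library, where 19.0% of all genes were.

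The differences were 0.49 ± 0.37 for Pkm (limma adjusted p = 0.879) and 0.24 ± 0.35 for Hk1 (adjusted p = 1.0). They moved with the scale. After rescaling, the median of all genes then tested was -0.08, that of the 10 genes -0.20, and 9 of the 10 were lower in VCP TG TAC. All 7 cardiomyocyte markers were lower as well on that scale, with a median of -0.30. They summed to 44230 to 66781 in VCP TG TAC and 59447 to 75525 in WT TAC, and their part in the result was not tested. Hk1 then differed by -0.14, the only 1 of the named differences to change sign, and Pkm by 0.10. Also after rescaling, Slc2a1 did not overlap, at 5.34 to 8.18 in VCP TG TAC and 8.98 to 12.7 in WT TAC, where 13.7% of all genes were lower without overlap. Without the library labelled WT TAC replicate 1, whose Vcp went against the label, and VCP TG sham replicate 1, whose Vcp lay close to WT sham, the median of the 10 genes on the deposited scale was 0.07, with 0.43 for Pkm and 0.28 for Hk1. Mitochondrial genes took 40.2% to 51.6% of TPM in VCP TG TAC and 55.5% to 60.9% in WT TAC.

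In VCP TG hearts, TAC was compared with sham at 2 weeks. The 10 genes split evenly, 5 higher and 5 lower, with a median of 0.01 against 0.02 for all genes. No gene of the 10 passed, against 0.772% of all genes, and 0 had an unadjusted p under 0.05. Pfkm stood at 63.9, 57.0 and 81.6 TPM in VCP TG TAC, against 123, 80.6, 105 and 26.3 TPM in VCP TG sham. Hk2 stood at 29.5, 25.9 and 40.0 TPM in VCP TG TAC, against 57.4, 40.1, 42.0 and 14.98 TPM in VCP TG sham. In Hk2 the TAC libraries lay below sham replicates 1 to 3 and above replicate 4, and in Pfkm 1 TAC library also exceeded sham replicate 2. Without VCP TG sham replicate 4, all 10 genes were lower after TAC, with a median of -0.33, whereas without VCP TG sham replicate 1, 9 were higher, with a median of 0.23. Leaving out replicate 4 gave -0.59 for Pfkm and -0.54 for Hk2. After rescaling all 10 were lower as well (median -0.30), and Slc2a1 did not overlap, where 7.45% of all genes were lower without overlap.

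Whether the response to TAC differed between genotypes was tested as the response of VCP TG minus that of WT. The comparisons at 2 weeks share groups, so their values are not independent of each other. The median over the 10 genes was 0.72, against 0.22 for all genes, with 9 of 10 above 0, and 0 of 10 passed, against 0.00644% of all genes. Pkm had the largest value, at 1.06 ± 0.51 (unadjusted p = 0.0494, limma adjusted p = 0.872). Its value was 0.73 after rescaling and 0.56 without VCP TG sham replicate 4. Without that library the median of the 10 genes was 0.28 and that of all genes -0.01, and without the libraries rich in atrial transcripts these medians were 0.12 and 0.17. At this spread, no difference in response was detected for any of the 10 genes, and the smallest size that could be detected was not worked out.

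**Figure D3:**
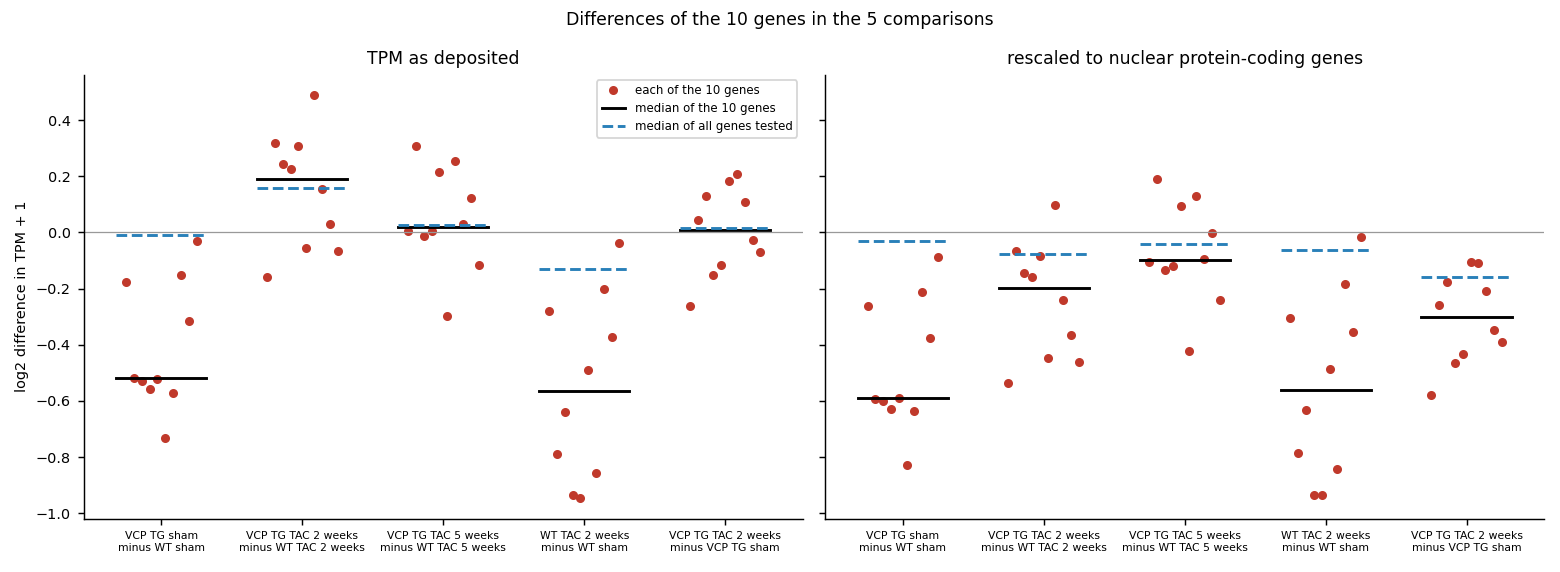
Log2 difference in TPM + 1 (y axis) of the 10 genes (points) in each comparison (x axis), with the median of the 10 genes (solid line) and of all genes tested (dashed line), for TPM as deposited (left) and rescaled to nuclear protein-coding genes (right). The WT TAC comparison has a median of -0.57 as deposited, and in VCP TG TAC against WT TAC the median is 0.19 as deposited and -0.20 after rescaling.

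At 5 weeks under load, VCP TG and WT hearts were close. Of the 10 genes, 7 had higher means in VCP TG TAC, with a median of 0.02 against 0.03 for all genes. No gene of the 10 passed, against 0.00715% of all genes, and 0 had an unadjusted p under 0.05. Slc2a4 stood at 40.1, 40.3 and 38.5 TPM in VCP TG TAC, against 33.9, 23.7, 36.8 and 34.7 TPM in WT TAC, a difference of 0.31 ± 0.20 (limma adjusted p = 0.904). It was the only 1 of the 10 genes without overlap, where 3.4% of all genes were higher without overlap. After rescaling it overlapped, 7 of the 10 genes were lower in VCP TG TAC, and the median was -0.10. Without the 3 libraries whose Vcp went against the label, the median on the deposited scale was 0.11 and Slc2a4 differed by 0.22. Pfkp stood at 18.6, 18.4 and 19.1 TPM in VCP TG TAC, against 40.4, 26.7, 25.3 and 10.4 TPM in WT TAC, so the WT libraries spread on both sides of the VCP TG libraries. In the list of glucose transport genes, Txnip, a thioredoxin-binding protein that restrains glucose uptake, did not overlap either, at 0.68 ± 0.20 (limma adjusted p = 0.904). It was 1 of 8 tested genes of that list. Of 10 tested other glycolytic enzymes, 1 went the other way and was lower in VCP TG TAC without overlap, where 1.74% of all genes were.

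The levels at 2 and 5 weeks come from tables made separately, so they are given side by side without a test, and time and table cannot be told apart. In WT TAC hearts Pkm averaged 109 ± 9.66 TPM at 2 weeks and 154 ± 11.6 TPM at 5 weeks (SD, n = 4 each), Hk1 31.6 ± 2.14 TPM at 2 weeks and 45.9 ± 4.51 TPM at 5 weeks, and Eno3 454 ± 86.2 TPM at 2 weeks and 343 ± 84.2 TPM at 5 weeks. In VCP TG TAC hearts Pkm averaged 154 ± 22.7 TPM at 2 weeks and 186 ± 31.5 TPM at 5 weeks (SD, n = 3 each). Ordered by mean deposited TPM, WT sham hearts had the highest level of 8 of the 10 genes, the exceptions being Eno3, highest in VCP TG sham, and Pfkp, highest in WT TAC of 5 weeks. WT TAC of 2 weeks had the lowest mean of Slc2a4, Hk1, Hk2, Pfkm, Pkm and Ldhb. Neighbours in that order overlapped in their libraries for all 10 genes, with 1 exception: Hk1 in WT TAC of 2 weeks lay below VCP TG TAC of 2 weeks. After rescaling, WT sham had the highest mean of 9 genes, all but Pfkp. VCP TG TAC of 2 weeks then had the lowest mean of 8 genes, WT TAC of 2 weeks of Pkm and VCP TG TAC of 5 weeks of Eno3. On that scale 4 genes had neighbours apart: WT sham lay above the next group for Slc2a4, Hk2 and Pfkm, and VCP TG TAC of 2 weeks lay below WT TAC of 2 weeks for Slc2a1.

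Where a step has 2 forms, their ratio within a library does not depend on how the library was scaled. The ratios Slc2a1/Slc2a4, Hk2/Hk1, Pfkp/Pfkm and Ldha/Ldhb were compared with exact permutation tests, two-sided, in 20 tests of the 5 comparisons. None passed after adjustment, with a smallest adjusted p of 0.571, and the design allows no p below 0.0286 with 4 against 4 libraries or 0.0571 with 4 against 3. Slc2a4 exceeded Slc2a1, Pfkm exceeded Pfkp and Ldhb exceeded Ldha in all 22 libraries. Hk2/Hk1 lay on both sides of 1.

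The log2 ratio Pfkp/Pfkm stood at -1.64, -1.74, -1.60 and -1.80 in WT TAC of 2 weeks, against -2.99, -1.95, -1.82 and -1.82 in WT sham. The groups did not overlap, by a narrow margin, and the difference of 0.45 had the smallest p the design allows (exact permutation p = 0.0286). Without WT sham replicate 1 the difference was 0.16. The log2 ratio Slc2a1/Slc2a4 stood at -3.43, -3.40 and -3.65 in VCP TG TAC of 2 weeks, against -2.11, -3.29, -3.16 and -3.29 in WT TAC, a difference of -0.53 (exact permutation p = 0.0571, adjusted p = 0.571). The highest of these WT values was from the library labelled WT TAC replicate 1, and without it the difference was -0.25.

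**Figure D4:**
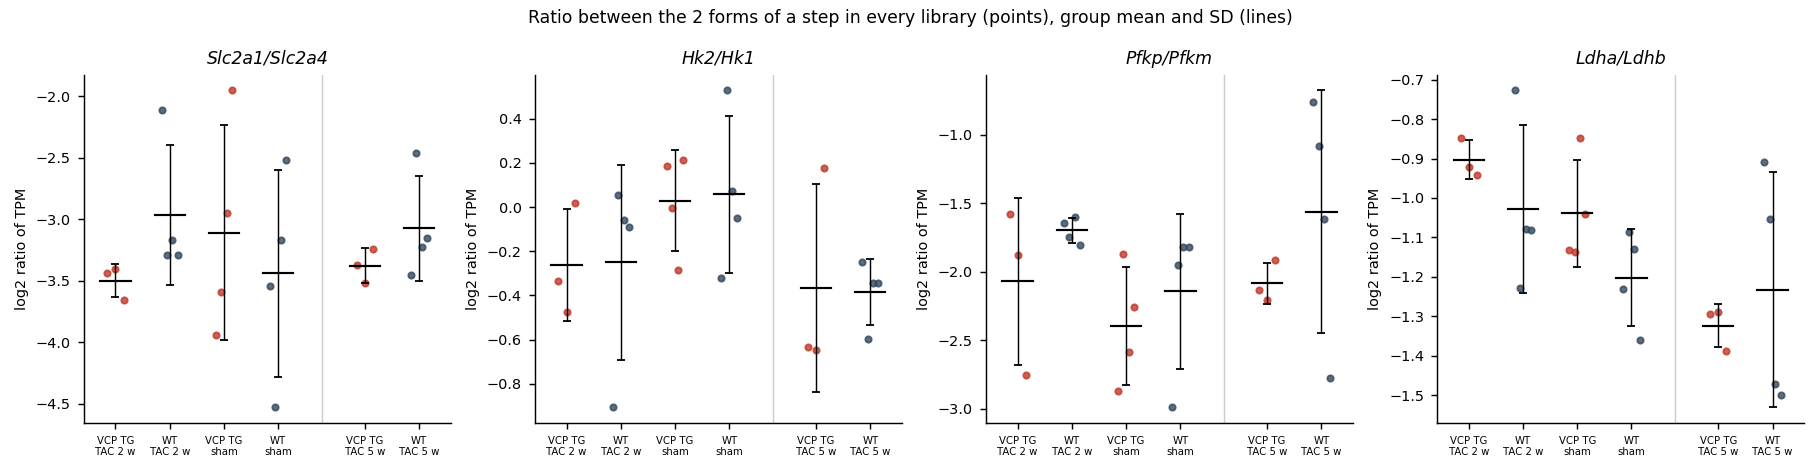
Log2 ratio of TPM (y axis) between the 2 forms of a step, by group (x axis); points are libraries and lines the group mean and SD. In Pfkp/Pfkm the 4 WT TAC libraries of 2 weeks lie between -1.80 and -1.60, just above the WT sham libraries, of which replicate 1 lies at -2.99.

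Ratios to Eno3, a gene of the same pathway whose level hardly differed between WT TAC and WT sham, describe the unequal change. These ratios were chosen after the values were seen and have no test. Pfkm stood at 0.115 to 0.127 of Eno3 in WT TAC of 2 weeks and at 0.189 to 0.279 in WT sham. Pkm stood at 0.213 to 0.274 of Eno3 in WT TAC and at 0.346 to 0.525 in WT sham. In VCP TG TAC, Pkm stood at 0.351 to 0.366 of Eno3, against 0.176 to 0.554 in VCP TG sham. The WT ranges did not overlap, and the VCP TG sham range enclosed the VCP TG TAC range. Pfkm and Pkm were themselves apart between WT TAC and WT sham, so the gap in these ratios is no separate evidence.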

How the data were processed

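The authors deposited TPM (transcripts per 1000000) in a 2-week table (15 libraries) and a 5-week table (7 libraries); the unit was read from the values, whose columns each sum to 1000000. Per the submitters' processing notes, the tools were STAR 2.5.4b, kallisto 0.43.1, DESeq2 and Trimmomatic 0.35 and the build GRCm38; which of them made the TPM is not stated. TPM keep no read number, so depth is unknown. Names and positions came from GENCODE M21, promoters from RefSeq. No column was left without a sample.

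Tests were made within a table, with limma 3.58.1 (R 4.3.3; trend, robust) on log2(TPM + 1), which understates changes of low genes. Genes with at least 1 TPM in 3 libraries were tested (15540 at 2 weeks, 13986 at 5 weeks), two-sided, adjusted by Benjamini-Hochberg over all genes tested, at a threshold of 0.05. All 4 groups of the 2-week table shared 1 fit; each pair was also fitted alone. Rescaled values sum to 1000000 over nuclear protein-coding genes. In rescaled fits the filter of 1 was applied to the rescaled values, so more genes were tested (20313 at 2 weeks, 18556 at 5 weeks). Ratios were tested with scipy 1.17.1. No label names separate animals, so a p-value covers only the spread among libraries, which may be technical. The fit was tested on simulated data. All 10 genes are named; a difference with its error is given where the unadjusted p was under 0.05 or the groups did not overlap, and the others as ranges. From each other list, genes that passed or had the lowest p without overlap are named. The genes, lists and tests were chosen with earlier results of these data known.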

Additional observations from a re-analysis of the deposited data

Results flagged for a closer look

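In groups of 4 libraries, 4 of 60 sets of values had 1 library that stood far from the others relative to the range of its group; chance flags about 1 in 20 such groups. Vcp stood at 119 TPM in the library labelled WT TAC 2 weeks replicate 1, above the other 3 of its group. The same library had a log2 ratio of -0.90 for Hk2/Hk1, below the others, and of -2.11 for Slc2a1/Slc2a4, above the others. WT sham replicate 1 had a log2 ratio of -2.99 for Pfkp/Pfkm, below the others.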

How the results depend on the processing

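The number of the 10 genes that passed was 0 in every comparison with all groups fitted together, and stayed 0 under all alternatives run except in WT TAC against WT sham. There it was 4 with the 2 groups fitted alone and 3 when a block for the replicate number was added to that fit. It was 3 with 1 sample weight per group and 4 without the libraries rich in atrial transcripts, whose genes then were Hk1, Hk2, Pfkm and Pkm. Every block fit of a pair held only its 2 groups, so its counts are to be read against the groups alone. Where 3 libraries met 4, the library numbered 4 had no partner and no part in the difference. For the difference between responses, the block fit kept all 4 groups. With the 2 groups fitted alone it ranged from 0 to 5 when 1 library was left out, an alternative chosen after seeing the data, as was rescaling that fit. The only named difference to change sign was Hk1 in VCP TG TAC against WT TAC of 2 weeks, at -0.14 after rescaling.

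Counts over all genes moved more. In WT TAC against WT sham the count of 0 became 8 with a pseudocount of 0.1, 7 after rescaling, 2 with quantile normalization and 991 with sample weights. It was 964 with the 2 groups alone, 659 with the replicate block added to that fit, 1202 without the atrial-rich libraries and 0 to 1 with 1 library left out. The fit of the 2 groups alone gave 1495 after rescaling, with 16962 genes tested against 13709 as deposited. It gave 49 to 2148 with 1 library left out. In VCP TG TAC against VCP TG sham the 120 genes became 2 with a pseudocount of 0.1, 1846 without a filter, 227 after rescaling, 1 with sample weights, 53 with the groups alone, 3 with the block, 719 without atrial-rich libraries and 17 without the libraries of doubtful Vcp level (the one labelled WT TAC 2 weeks replicate 1, against its label, and VCP TG sham replicate 1, close to WT sham), and 1 to 753 with 1 library left out. In VCP TG TAC against WT TAC of 2 weeks the 14 genes became 1 with a pseudocount of 0.1, 634 without a filter, 23 after rescaling, 9 with quantile normalization, 1488 with sample weights, 8 with the groups alone, 1 with the block, 640 without atrial-rich libraries and 9 without the libraries of doubtful Vcp level, and 1 to 15 with 1 library left out. In the sham comparison 0 became 1 with a pseudocount of 0.1, 2 with the groups alone, with the block or without the libraries of doubtful Vcp level, and 0 to 1 with 1 left out. At 5 weeks 1 became 0 with the block and without the 3 libraries whose Vcp went against the label, and 0 to 3 with 1 left out. For the difference between responses 1 became 0 with a pseudocount of 0.1, sample weights, the block or no atrial-rich libraries, 24 without a filter, 4 after rescaling, 2 with quantile normalization or without trend and robust moderation, and 0 to 4 with 1 left out. The causes were not tested.

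The deviations of same-numbered libraries from their group means correlated by 0.0746 to 0.271 in the sham comparison and by -0.240 to 0.161 in the others. Libraries of different number were not compared in this way, so these values cannot tell whether a number marks a shared batch. The numbers have no stated meaning and were not taken as pairs. Depth limits are unknown, since TPM keep no read number.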
